A study of Homo sapiens with 36 samples.

Results

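Membrane-damage senescence was compared with replicative senescence in WI-38 cells, a diploid fibroblast strain from human fetal lung with a limited replicative lifespan, by small RNA sequencing. The comparison used 4 of the 36 libraries of the series, 2 of PMD-Sen D16 and 2 of RS, over all 1508 miRNA rows of the count table. PMD-Sen D16 cells had been exposed to 0.0095% SDS for 24 h, a detergent treatment that injures the cell membrane, and were collected 16 days after its removal. RS cells had become senescent through serial passage, at a population doubling level of 54 to 56. For reference, the 2 Ctrl libraries (young proliferating cells, no treatment) and the 2 DDR-Sen D16 libraries (cells 16 days after removal of DXR, a DNA-damaging drug) were read on the same scale. All of these groups came from 1 cell strain, so the replicates, labelled as biological, carry no variation between donors. The libraries are bulk, and fewer cells that hold a miRNA and less of it per cell cannot be told apart.

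A mature miRNA guides the Argonaute protein to messenger RNAs that pair with its seed, the bases at positions 2 to 8, and thereby lowers their output, so miRNAs with the same seed share most of their targets. The miR-17 clusters promote proliferation and restrain cell cycle inhibitors, the miR-15/16 family restrains cyclins and BCL2, and miR-155-5p is best known from inflammation and lymphocytes. Senescent fibroblasts have left the cell cycle for good, and the routes to that state differ in how they are triggered.

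Of the 20 miRNAs that differed between PMD-Sen D16 and RS and had a matched sequence, 8 shared a seed with another of them, in 3 groups. The mature sequences of these 8 and of 2 others described in full are shown with the seed in capitals, as RefSeq gives them with GRCh38.p14. The first group has the seed AAAGUGC and contains 4 miRNAs that were higher in PMD-Sen D16 than in RS, followed by miR-18a-5p, from the cluster of miR-17-5p and miR-20a-5p, which has another seed.
miR-17-5p: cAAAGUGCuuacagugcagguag
miR-20a-5p: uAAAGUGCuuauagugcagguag
miR-93-5p: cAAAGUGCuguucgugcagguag
miR-106b-5p: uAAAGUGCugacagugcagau
miR-18a-5p: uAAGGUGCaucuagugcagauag

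The next lines show the pair with the seed AGCAGCA, also higher in PMD-Sen D16, then miR-155-5p with a seed of its own, and last the miR-181 pair with the seed ACAUUCA, which was lower in PMD-Sen D16 than in RS.
miR-15a-5p: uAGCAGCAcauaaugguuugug
miR-15b-5p: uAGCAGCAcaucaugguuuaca
miR-155-5p: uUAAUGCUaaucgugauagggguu
miR-181a-5p: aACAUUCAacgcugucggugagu
miR-181c-5p: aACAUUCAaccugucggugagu

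The 4 libraries were not equally deep or equally alike. PMD-Sen D16 had 1933435 and 440285 counts, a 4.39-fold gap between its replicates, and RS had 413994 and 649167. Across the 360 tested miRNAs, log2 CPM, counts scaled to the TMM-adjusted library total, had r = 0.987 between the PMD-Sen D16 replicates and r = 0.958 between the RS replicates. RS replicate 2 correlated more closely with either PMD-Sen D16 library (r = 0.978 with each) than with RS replicate 1, which had r = 0.939 and 0.956 with them. RS replicate 1 therefore stood apart from the other libraries, and most DE calls and the main comparisons against RS are given with and without it. Values not marked as without it include it and may depend on it. The RS replicates also had the largest median absolute log2 difference over the tested miRNAs of any group of the series, 0.572. PMD-Sen D1 and PMD-Sen D0 were close to it, at 0.546 each, and by correlation their replicates agreed less (r = 0.952 and 0.937). The spread estimated over all libraries is therefore smaller than that of RS itself. These correlations are descriptions over 360 miRNAs of the same libraries.

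The labelled cell type was checked against miRNA markers. The 8 fibroblast miRNAs examined summed to 132015 and 76577 CPM in PMD-Sen D16 and 55431 and 118006 CPM in RS, with miR-10b-5p, an intended member, at 4.35 to 11.0 CPM. Most of each sum was miR-21-5p, at 101448 and 59076 CPM in PMD-Sen D16 and 46780 and 101038 CPM in RS. The 7 epithelial miRNAs summed to 27.2 and 41.8 CPM in PMD-Sen D16 and 85.9 and 49.9 CPM in RS. Nearly all of each sum was miR-200b-3p and miR-200c-3p. miR-200b-3p was at 14.1 and 19.8 CPM in PMD-Sen D16 and 23.9 and 27.4 CPM in RS. miR-200c-3p was at 12.0 and 22.0 CPM in PMD-Sen D16 and 62.0 and 19.3 CPM in RS. The members miR-141-3p and miR-429 were listed at 0 in all 4 libraries. The 3 muscle miRNAs with a row summed to 7.07 and 13.2 CPM in PMD-Sen D16 and 4.77 and 41.9 CPM in RS. Of these, miR-206 was at 0 in all 4 libraries, miR-133a-3p had at most 2 counts in any of them, and miR-1-3p had 13 and 4 counts in PMD-Sen D16 and 0 and 24 in RS. Both endothelial miRNAs, the arms of miR-126, summed to 140.9 and 132.1 CPM against 119 and 199.6 CPM. The 5 blood miRNAs with a row summed to 230.2 and 365.4 CPM in PMD-Sen D16 and 1047 and 497.4 CPM in RS, nearly all of it miR-486-5p, with miR-223-3p at 0 in all 4 libraries. The neuronal miR-124-3p was at 0 throughout. The part of these miRNAs in the results was not tested.

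Of the 1508 rows, 360 had enough counts to be tested. The other 1148 were at 0 in all 4 libraries (559) or held few counts (589), with a mean of at most 21.25 counts over the 4 libraries. DE miRNAs were those with a Benjamini-Hochberg adjusted p below 0.05 in edgeR's quasi-likelihood test and a difference above 2-fold. By this rule 24 miRNAs (6.67% of those tested) were DE, 16 higher in PMD-Sen D16 (4.44%) and 8 lower (2.22%). Another 9 miRNAs passed the adjusted p with a difference below 2-fold, so that 9.17% passed at any fold. At an unadjusted p below 0.05 and above 2-fold, 14.2% passed. The fitted difference was within 2-fold for 290 of the 360 miRNAs, but the whole 95% interval was within 2-fold for only 119. The median log2 fold change was 0.03, which the scaling of the libraries sets near 0.

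The count of DE miRNAs rested on individual libraries. It was 7 higher and 2 lower without RS replicate 1, and 32 higher and 28 lower without RS replicate 2. Without PMD-Sen D16 replicate 1, the deepest library, 1 was higher and 1 lower, and without PMD-Sen D16 replicate 2, 24 were higher and 4 lower. Only miR-15b-5p was called in all 4 of these analyses, and 5 further miRNAs (miR-20a-5p, miR-93-5p, miR-199b-5p, miR-505-3p and miR-181a-5p) in 3 of them. When a group lost a library, its remaining library was assumed to vary like the other groups. In a fit of the 4 libraries alone no miRNA passed the adjusted p in edgeR (smallest adjusted p = 0.257), while 20 higher and 14 lower had an unadjusted p below 0.05 and a difference above 2-fold. DESeq2 on the same 4 libraries called 2 higher and 0 lower. The calls above thus depended on the spread estimated over all 36 libraries.

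**Figure D1:**
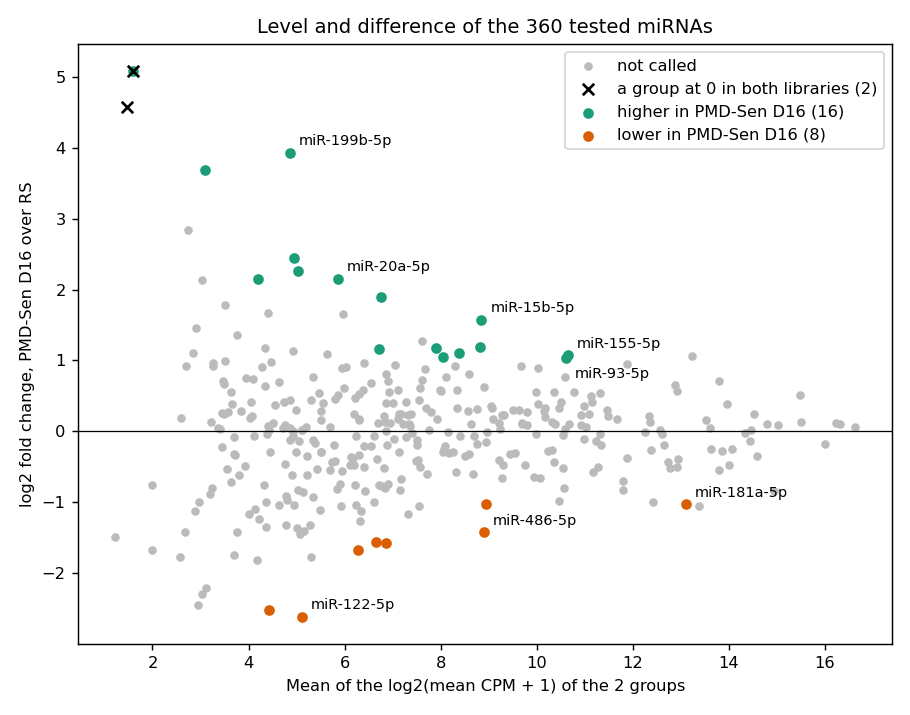
Each point is 1 of the 360 tested miRNAs, with its mean log2 level in CPM over the 2 groups on the horizontal axis and its log2 fold change, PMD-Sen D16 over RS, on the vertical axis. The 16 higher miRNAs (green) and 8 lower miRNAs (orange) lie above and below 0, and miR-181a-5p is the DE miRNA with the highest level (means of 6170 and 12589 CPM). Crosses mark 2 miRNAs at 0 in both libraries of a group, whose fitted values are no measure of the fold.

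The miR-17 clusters were the group with the most DE miRNAs. Of 13 tested members of the miR-17-92 and miR-106b-25 clusters and their relatives, 6 were higher in PMD-Sen D16 than in RS and none was lower, beside 4.44% and 2.22% of all tested miRNAs. The median log2 fold change of the 13 was 1.04 against 0.03 over all tested miRNAs. When RS replicate 1 was left out, the median was 1.04 against 0.01. All 4 tested miRNAs with the seed AAAGUGC were among the 6 higher members, and summed to 3000 and 2428 CPM in PMD-Sen D16 and 1269 and 1215 CPM in RS. MIR17, MIR18A and MIR20A lie within 1 host transcript, MIR17HG, on chromosome 13 (chr13:91350605-91351135, plus strand, from the start of the first to the end of the last hairpin, GRCh38.p14). MIR106B and MIR25 lie in an intron of MCM7, which encodes a subunit of the replicative helicase, on chromosome 7 (chr7:100093560-100094074, minus strand).

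miR-93-5p, the most abundant of them, was at 2416 and 2049 CPM in PMD-Sen D16 and at 1128 and 1051 CPM in RS. The groups did not overlap, and the spread within each was small beside the gap (log2 fold change 1.04, SE 0.17, edgeR quasi-likelihood test with Benjamini-Hochberg adjusted p = 0.000251). miR-20a-5p was at 152.4 and 83.7 CPM in PMD-Sen D16 and at 28.6 and 25.8 CPM in RS. Its lower PMD-Sen D16 library was still well above both RS libraries (log2 fold change 2.16, SE 0.40, edgeR Benjamini-Hochberg adjusted p = 0.000533). miR-106b-5p was at 253 and 167 CPM against 26.2 and 83.7 CPM, and here RS replicate 1 was the lowest library by a wide margin (log2 fold change 1.89, SE 0.45). miR-25-3p, from the same intron, was at 593 and 385 CPM against 217 and 240 CPM (log2 fold change 1.11, SE 0.25). miR-17-5p was at 178 and 128 CPM against 85.9 and 54.7 CPM (log2 fold change 1.16, SE 0.35). For these 3 miRNAs, too, the groups did not overlap.

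miR-18a-5p was rare, with 58 and 10 counts in PMD-Sen D16 and 0 and 2 counts in RS. The ratio of the summed counts, scaled to library size, was 15.4, with a 95% counting interval of 4.11 to 130 that covers counting error only. Without RS replicate 1, miR-93-5p (log2 fold change 1.09), miR-20a-5p (2.23) and miR-17-5p (1.50) were still DE, whereas miR-106b-5p (1.35), miR-25-3p (1.04) and miR-18a-5p (3.00) were not. Leaving out each of the 4 libraries in turn gave log2 fold changes of 0.91 to 1.15 for miR-93-5p, 1.62 to 2.48 for miR-20a-5p, 0.88 to 1.50 for miR-17-5p and 1.35 to 3.11 for miR-106b-5p. The range was 0.75 to 1.37 for miR-25-3p. For miR-18a-5p it was 3.00 to 3.87 over 3 of the left-out libraries, while without RS replicate 2 the only RS library was at 0, against whose floor of 3 counts the mean of PMD-Sen D16 was at least 3.74-fold higher. None of the 6 was DE without PMD-Sen D16 replicate 1.

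The other 7 tested members of these clusters were not DE. miR-92a-3p, the most abundant product of the cluster, was at 9860 and 8942 CPM in PMD-Sen D16 and at 7164 and 4836 CPM in RS (log2 fold change 0.65, edgeR Benjamini-Hochberg adjusted p = 0.0632). Its groups did not overlap, and the 95% interval was 0.19 to 1.11. Without RS replicate 1 the log2 fold change of miR-92a-3p was 0.96. miR-19b-3p overlapped between the groups, at 42.4 and 15.4 CPM against 4.77 and 20.9 CPM. The opposite arms miR-106b-3p (log2 fold change 0.55), miR-93-3p (0.98), miR-18a-3p (0.05) and miR-25-5p (−0.61) did not pass either.

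**Figure D2:**
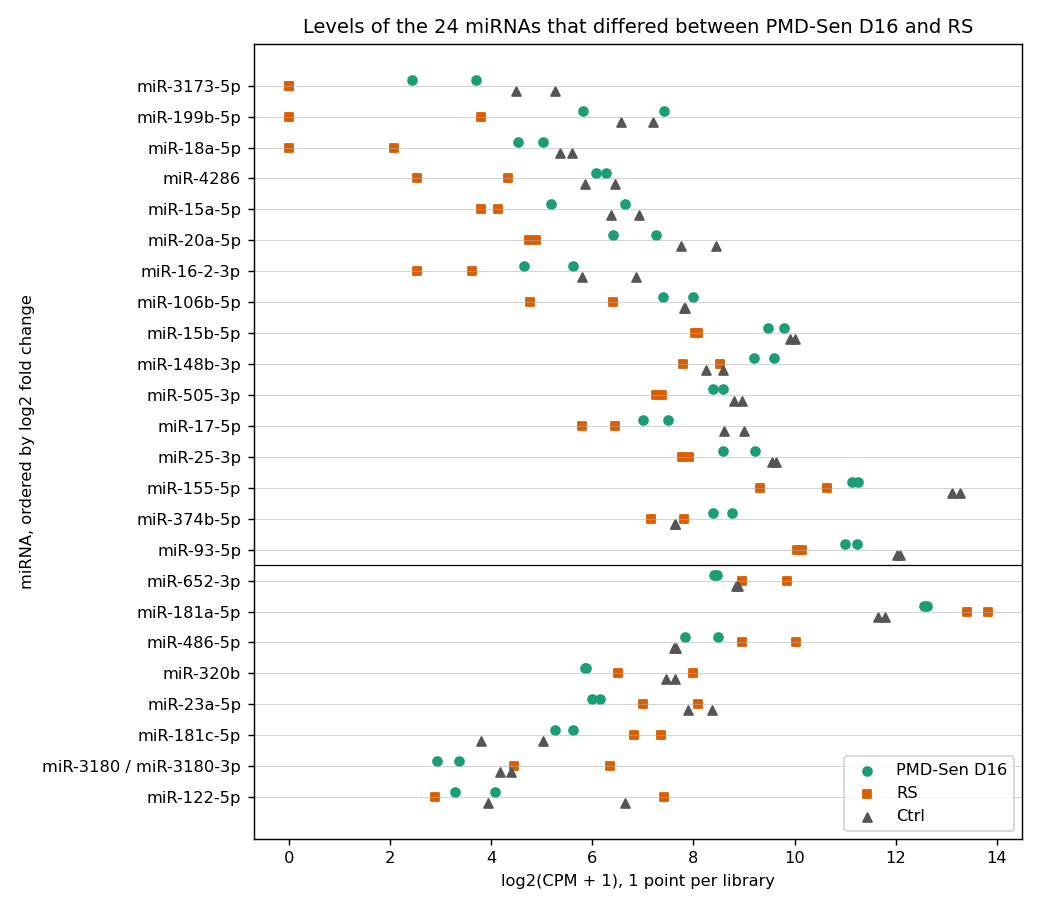
Each row is 1 of the 24 DE miRNAs and each point 1 library, with log2(CPM + 1) on the horizontal axis and circles for PMD-Sen D16, squares for RS and triangles for Ctrl. All 16 miRNAs above the line have both PMD-Sen D16 libraries above both RS libraries, and of the 8 below it only miR-122-5p overlaps.

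Of the 3 tested members of the miR-15/16 family, miR-15a-5p and miR-15b-5p were DE, both higher in PMD-Sen D16, beside 4.44% of all tested miRNAs. The median log2 fold change of the 3 was 1.58 against 0.03 over all tested miRNAs. With RS replicate 1 left out, the median was 1.55 and miR-15b-5p alone was DE. miR-15b-5p was at 879 and 707 CPM in PMD-Sen D16 and at 260 and 272 CPM in RS. Replicates of each group lay close together and the groups were far apart (log2 fold change 1.58, SE 0.29, edgeR Benjamini-Hochberg adjusted p = 0.000533), and the value stayed between 1.41 and 1.72 whichever library was left out. MIR15B and MIR16-2 are neighbours in an intron of SMC4, which encodes a condensin subunit, on chromosome 3 (chr3:160404588-160404825, plus strand, GRCh38.p14). miR-16-2-3p, the minor arm of the second hairpin, was at 48.4 and 24.2 CPM against 4.77 and 11.3 CPM (log2 fold change 2.14, SE 0.71), from only 2 and 7 counts in RS.

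miR-15a-5p, from the DLEU2 locus on chromosome 13 (chr13:50049119-50049201, minus strand), was at 99.04 and 35.2 CPM in PMD-Sen D16 and at 16.7 and 12.9 CPM in RS (log2 fold change 2.26, SE 0.60). PMD-Sen D16 replicate 1 was the highest library, and without it the value was 1.26 and no longer DE. The most abundant member, miR-16-5p, was at 2558 and 1449 CPM against 1210 and 1162 CPM. It did not overlap but narrowly missed the threshold (log2 fold change 0.76, edgeR Benjamini-Hochberg adjusted p = 0.0533). miR-424-5p, which has the same seed AGCAGCA, overlapped, at 579 and 288 CPM against 110 and 346 CPM. Without RS replicate 1, miR-15a-5p (log2 fold change 2.45) and miR-16-2-3p (1.75) were not DE.

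miR-155-5p was at 2427 and 2234 CPM in PMD-Sen D16, 1589 and 634 CPM in RS, and 8830 and 9908 CPM in Ctrl. Both senescent groups were thus far below Ctrl, with RS the lower (PMD-Sen D16 over RS, log2 fold change 1.08, SE 0.26, edgeR Benjamini-Hochberg adjusted p = 0.00702). The size of this difference was set by which RS library was used, being 1.88 without RS replicate 1 and 0.67, not DE, without RS replicate 2. With an offset for the GC content of each miRNA in each library, added after seeing the data, it was 0.69 and did not pass (edgeR Benjamini-Hochberg adjusted p = 0.215). Of the 10 tested miRNAs of the inflammatory list, which also holds miR-146a-5p, miR-146b-5p, miR-21-5p and miR-132-3p, miR-155-5p was the only DE member. This share is near the 6.67% of all tested miRNAs and is no result about the list.

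Among miRNAs typical of mesenchymal cells, miR-199b-5p differed most. It had 170 and 55.0 CPM in PMD-Sen D16, was listed at 0 in RS replicate 1 and had 12.9 CPM in RS replicate 2. Both PMD-Sen D16 libraries were above both RS libraries (log2 fold change 3.93, SE 0.73, edgeR Benjamini-Hochberg adjusted p = 0.000533), and the value was 3.17 and still DE without RS replicate 1, with a range of 2.84 to 4.47 over 3 of the left-out libraries. Without RS replicate 2 the only RS library was at 0, and against its floor of 3 counts the mean of PMD-Sen D16 was at least 15.7-fold higher. All 9 tested members of this list had a log2 fold change above 0 (median 0.97), but only miR-199b-5p was DE, against 4.44% of all tested miRNAs. The median was 0.72 without RS replicate 1, and miR-199b-5p was again the only one.

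3 more mesenchymal miRNAs passed the adjusted p below 2-fold. miR-145-5p, a smooth muscle and myofibroblast miRNA, was at 1304 and 933 CPM in PMD-Sen D16 and at 458 and 724 CPM in RS (log2 fold change 0.92). miR-199a-5p was at 1713 and 1121 CPM against 530 and 988 CPM (0.90). The joined entry of miR-199a-3p and miR-199b-3p, whose mature sequences cannot be separated, was at 6651 and 3879 CPM against 2238 and 3210 CPM (0.95). None of these groups overlapped, and RS replicate 1 was the lowest library in each. Without it the values were 0.63, 0.53 and 0.72, respectively, and none passed the adjusted p (edgeR Benjamini-Hochberg adjusted p = 0.23, 0.438 and 0.336).

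5 more miRNAs were higher in PMD-Sen D16. miR-505-3p was at 385 and 334.6 CPM in PMD-Sen D16 and at 153 and 166 CPM in RS, with little spread within either group (log2 fold change 1.18, SE 0.24), and was still DE without RS replicate 1 (1.12). miR-148b-3p, which lies in an intron of COPZ1 and targets DNA methyltransferase transcripts, was at 771 and 583 CPM against 221.9 and 368.7 CPM (log2 fold change 1.19, SE 0.32). miR-374b-5p, from the X-linked FTX locus, was at 432.6 and 332 CPM against 143.1 and 224 CPM (log2 fold change 1.06, SE 0.28). Neither was DE without RS replicate 1 (0.88 and 0.78).

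The remaining 2 were rare. miR-4286, an entry from a list of 28 that may overlap other structural RNAs, was at 76.2 and 66.0 CPM in PMD-Sen D16 and at 4.77 and 19.3 CPM in RS (log2 fold change 2.44, SE 0.54), and was not DE without RS replicate 1 (1.88). miR-3173-5p, from an intron of DICER1, the gene of the enzyme that cuts miRNA precursors, had 22 and 2 counts in PMD-Sen D16 and 0 in both RS libraries. Taken against a floor of 3 counts per library it was at least 1.37-fold higher in PMD-Sen D16, which is less than the 2-fold of the rule. It was called in only 1 of the 4 analyses with a library left out.

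Of the 6 tested members of the miR-181 family, 2 were DE, both lower in PMD-Sen D16 than in RS, beside 2.22% of all tested miRNAs. The median log2 fold change of the 6 was −0.67 against 0.03 over all tested miRNAs (−0.68 against 0.01 without RS replicate 1). miR-181a-5p is best known for tuning receptor signalling in developing lymphocytes. miR-181a-5p was at 6276 and 6065 CPM in PMD-Sen D16, 10793 and 14386 CPM in RS, and 3197 and 3541 CPM in Ctrl. PMD-Sen D16 lay between Ctrl and RS without overlapping either (PMD-Sen D16 over RS, log2 fold change −1.03, SE 0.18, edgeR Benjamini-Hochberg adjusted p = 0.00043). miR-181c-5p was at 47.9 and 37.4 CPM against 112 and 164 CPM in RS (log2 fold change −1.67, SE 0.49). Both were still DE without RS replicate 1 (−1.22 and −1.91), whereas without RS replicate 2 they were −0.69 and −1.26 and not DE.

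miR-181b-5p, from the same clusters as miR-181a-5p, was at 2570 and 2745 CPM against 5125 and 4347 CPM and passed the adjusted p below 2-fold (log2 fold change −0.83), which it did not without RS replicate 1 (−0.71, edgeR Benjamini-Hochberg adjusted p = 0.0607). miR-181d-5p, at 77.8 and 112 CPM against 119 and 146.5 CPM, did not pass (log2 fold change −0.52). All 4 miRNAs with the seed ACAUUCA therefore had negative fold changes, beside 172 of all 360 tested miRNAs. The 4 summed to 8972 and 8960 CPM in PMD-Sen D16, 16149 and 19043 CPM in RS, and 6235 and 6673 CPM in Ctrl. The opposite arms did not follow, since miR-181a-3p (log2 fold change 0.76) and miR-181a-2-3p (−0.08) overlapped between the groups. MIR181A1 (chr1:198859044-198859153, minus strand) and MIR181A2 (chr9:124692442-124692551, plus strand) both give miR-181a-5p, and the counts do not separate them.

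The other 6 miRNAs that were lower in PMD-Sen D16 all lost the call without RS replicate 1. miR-320b was at 57.7 and 57.2 CPM in PMD-Sen D16 and at 255 and 90.2 CPM in RS (log2 fold change −1.56 with all libraries and −0.65 without RS replicate 1). All 3 tested members of the miR-320 family had negative fold changes, beside 172 of all 360 tested miRNAs. Only miR-320b was DE, where 2.22% of all tested miRNAs were DE and lower. The median log2 fold change of the 3 was −1.36 with all libraries and −0.65 without RS replicate 1. miR-320a, the most abundant, overlapped between the groups, at 6672 and 8196 CPM against 22703 and 8120 CPM. miR-23a-5p, the minor arm of a hairpin in MIR23AHG, was at 63.1 and 70.4 CPM against 272 and 127.2 CPM (−1.57 and −0.94). Its major arm miR-23a-3p differed little, with a log2 fold change of −0.02. miR-652-3p was at 353 and 339 CPM against 916 and 494.2 CPM (−1.02 and −0.51).

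miR-486-5p, an erythroid and muscle miRNA, was at 227 and 357 CPM in PMD-Sen D16 and at 1047 and 497.4 CPM in RS (log2 fold change −1.42 with all libraries and −0.79 without RS replicate 1). The defining erythroid miRNA, miR-451a, had 4 counts in PMD-Sen D16 replicate 1 and 0 in the other 3 libraries. The joined entry of miR-3180 and miR-3180-3p, which maps to several near-identical hairpins on chromosome 16, was at 9.25 and 6.60 CPM against 81.1 and 20.9 CPM (−2.51 and −1.28). miR-122-5p, the defining liver miRNA and also found in serum, was at 15.8 and 8.81 CPM against 169 and 6.44 CPM. The groups overlapped, and the log2 fold change of −2.61 turned to 1.04 without RS replicate 1, so its call rested on that library. In Ctrl, too, the replicates differed, at 98.8 and 14.3 CPM.

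**Figure D3:**
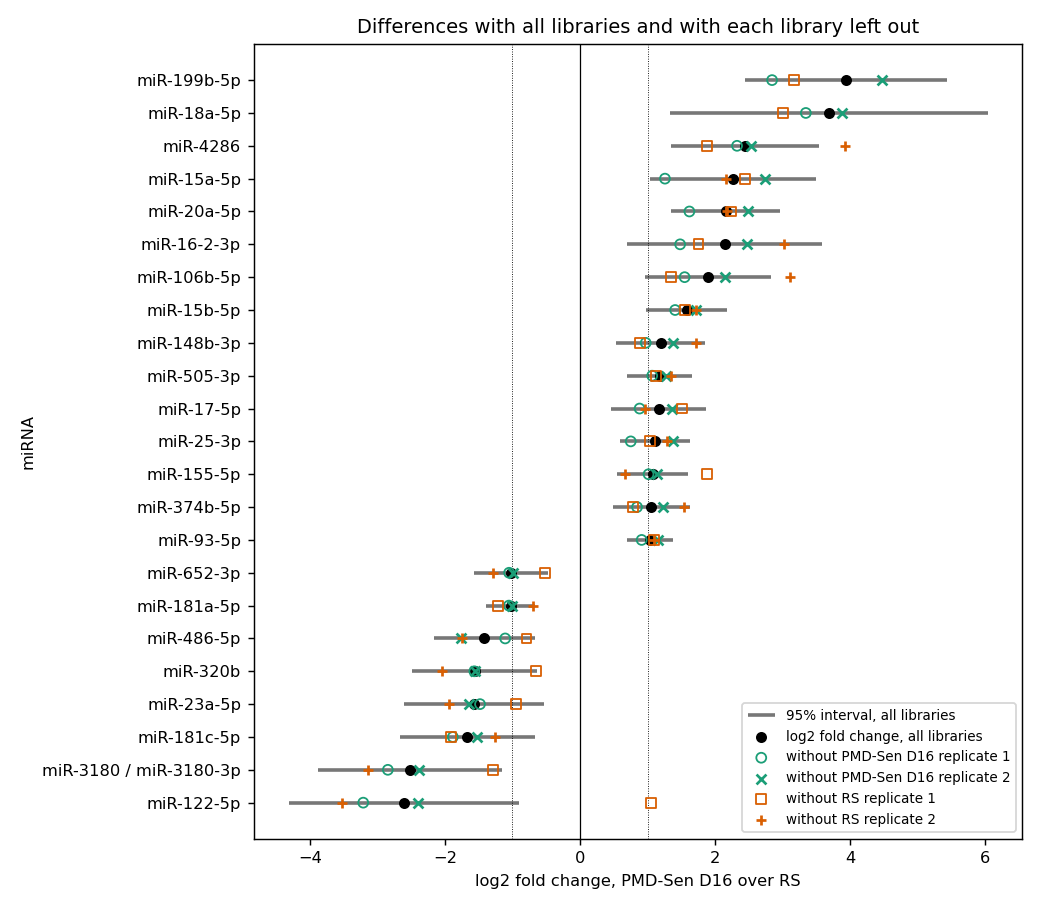
For each DE miRNA except miR-3173-5p, which was at 0 in RS, the black point is the log2 fold change of PMD-Sen D16 over RS with all libraries, the grey line its 95% interval and the coloured symbols the value with 1 library left out. No value without RS replicate 2 is drawn for miR-199b-5p and miR-18a-5p, since RS replicate 1 was at 0. miR-15b-5p, miR-505-3p and miR-93-5p hardly move, while miR-122-5p crosses to 1.04 without RS replicate 1.

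Of all 360 tested miRNAs, 43.1% did not overlap between the groups, 85 (23.6%) higher and 70 (19.4%) lower in PMD-Sen D16. Among the 24 DE miRNAs, 23 did not overlap, and since the test used the same values, this is a description.

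Several lists held no DE miRNA, and for lists of at most 10 tested miRNAs that is near what the 6.67% of all tested miRNAs gives, so those zeros are not read as results about the lists. The 9 tested let-7 miRNAs, which restrain RAS and MYC, had log2 fold changes of −0.39 to 0.16. The p53-induced miR-34a-5p was at 649 and 594 CPM in PMD-Sen D16 and at 444 and 697 CPM in RS, and no member of the 6 tested in its list was DE. The 16 proximal and 52 distal miRNAs of the imprinted 14q32 region had median log2 fold changes of 0.19 and 0.07, and none was DE beside 6.67% of all tested miRNAs. One of its members, miR-433-3p, passed the adjusted p below 2-fold, at 817 and 1178 CPM against 2386 and 1542 CPM (log2 fold change −0.98), but not without RS replicate 1 (−0.64, edgeR Benjamini-Hochberg adjusted p = 0.329). The lists of miR-30, of miR-29, of miR-424 with miR-503 and of miR-221 with miR-222 had none either. Across the 27 lists examined, 18 of the 24 DE miRNAs were a member of some list and 6 of none. Lists of the HOX-cluster miRNAs (median log2 fold change 0.22), miR-26 with miR-101 (0.10), the miR-193 and miR-365 clusters (−0.60), the miR-28 family (0.13), the miR-532 cluster (0.07), imprinted loci outside 14q32 (0.49), single stress miRNAs (0.05) and the miR-99 and miR-125 families (−0.29) also held none.

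None of the 10 most abundant miRNAs was DE. miR-125a-5p and miR-222-3p passed the adjusted p with smaller differences. miR-125a-5p, a relative of lin-4, was at 23021 and 24074 CPM in PMD-Sen D16 and above that in both RS libraries, at 47222 and 37132 CPM (log2 fold change −0.84, SE 0.19). miR-222-3p, which targets the cell cycle inhibitor p27, was at 47781 and 60879 CPM against 41257 and 35148 CPM (log2 fold change 0.51, SE 0.16). Without RS replicate 1 neither passed (−0.66 and 0.63, edgeR Benjamini-Hochberg adjusted p = 0.084 and 0.0678). For let-7a-5p the 95% interval of the log2 fold change was −0.35 to 0.46, for miR-100-5p −0.25 to 0.44 and for miR-125b-5p −0.45 to 0.09, all within 2-fold. miR-21-5p, the most abundant miRNA in many fibroblasts, varied more between replicates than between groups, with an interval of −0.58 to 0.82.

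The position of each DE miRNA relative to Ctrl was read from PMD-Sen D16 and RS each against the same Ctrl libraries, so these comparisons share samples with each other and with the one above. PMD-Sen D16 differed from Ctrl in 32 of 360 miRNAs (8.89%) and RS in 62 (17.2%) by the same rule. Of the 16 miRNAs higher in PMD-Sen D16 than in RS, 14 were lower in RS than in Ctrl (10.8% of all tested miRNAs were). Because the 16 were chosen as low in the same RS libraries, part of that count is built in, and nothing is read from it, nor from the like count of lower miRNAs. The count was again 14 without RS replicate 1. Of the 14, 11 were not DE between PMD-Sen D16 and Ctrl. miR-15b-5p is an example, with log2 fold changes from Ctrl of −0.32 in PMD-Sen D16 and −1.90 in RS. miR-20a-5p, miR-17-5p and miR-155-5p were DE and lower in both (5.83% of all tested miRNAs were DE and lower in PMD-Sen D16), with log2 fold changes of −1.22 and −3.37, −1.53 and −2.70, and −2.01 and −3.08, respectively.

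The remaining higher miRNAs were miR-148b-3p and miR-374b-5p. Their log2 fold changes from Ctrl were 0.98 and 0.96 in PMD-Sen D16 and −0.21 and −0.09 in RS, none of them DE. Of the 8 miRNAs lower in PMD-Sen D16, miR-181a-5p, miR-181c-5p and miR-486-5p were higher in RS than in Ctrl (6.39% of all tested miRNAs were), with log2 fold changes of 1.90, 2.56 and 1.96 (2.09, 2.80 and 1.33 without RS replicate 1). miR-320b and miR-23a-5p were lower in PMD-Sen D16 than in Ctrl (−1.68 and −2.09), with values of −0.13 and −0.52 in RS. Without RS replicate 1 the RS values were −1.04 and −1.15, so their closeness to Ctrl in RS rested on that library.

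The earlier days of PMD-Sen are given as means at D0, D1, D8 and D16. miR-155-5p was at 6476, 7447, 3171 and 2331 CPM, each above the RS mean of 1112 CPM. miR-20a-5p was at 213, 184.5, 128 and 118 CPM, with RS at 27.2 CPM. miR-15b-5p was at 1335, 1177, 949.8 and 793 CPM, and all PMD-Sen libraries were above both RS libraries. These means were lower at D16 than at D0. miR-181a-5p was at 4799, 4899, 3877 and 6170 CPM, so the mean at D16 was above that at D0. miR-23a-5p was at 441.5, 628, 154.7 and 66.8 CPM, with RS at 199.6 CPM. The changes between days were not tested.

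**Figure D4:**
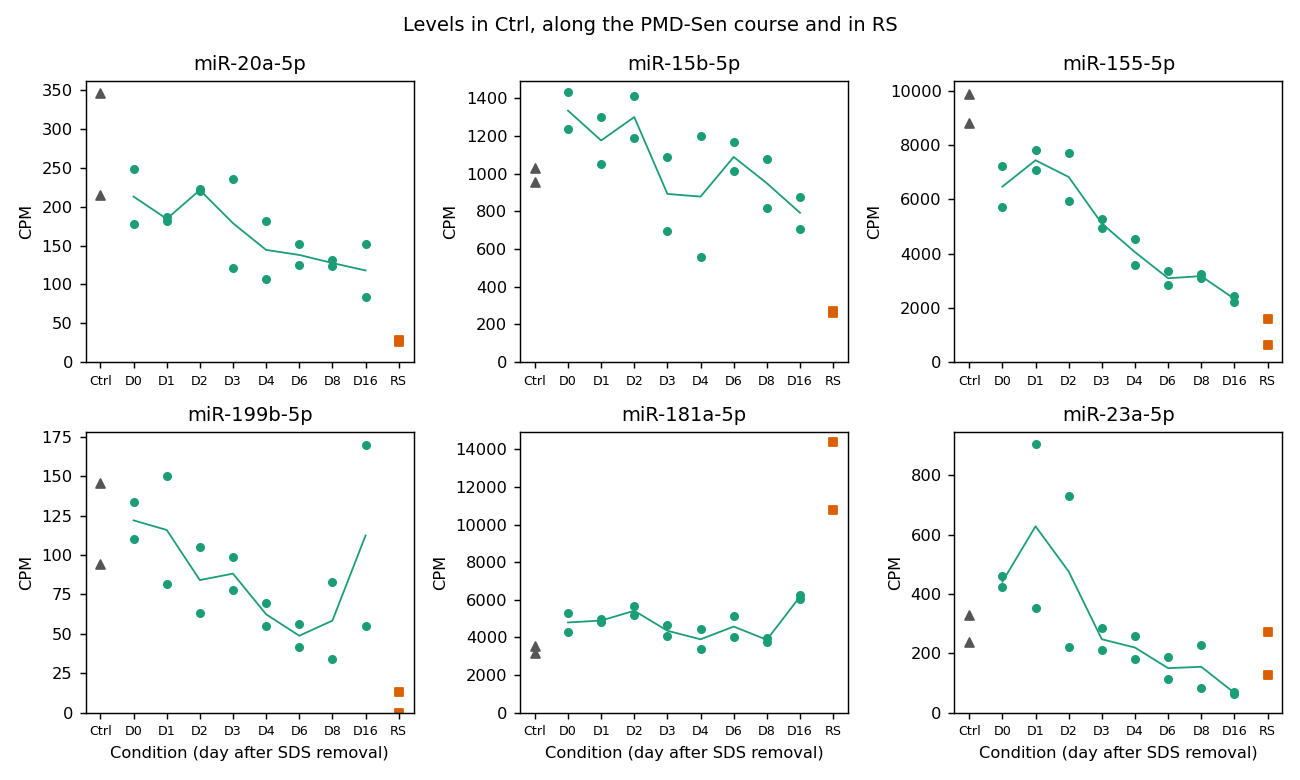
CPM of 6 DE miRNAs in Ctrl (triangles), PMD-Sen from D0 to D16 (circles, with a line through the means) and RS (squares), 1 point per library with vertical axes from 0. miR-155-5p goes from a mean of 6476 CPM at D0 to 2331 CPM at D16, and miR-181a-5p stays below both RS libraries on every day.

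DDR-Sen D16 was set against the same RS libraries, and 8 miRNAs (2.22%) were DE. Both comparisons share the RS libraries. Of the 24 DE miRNAs of PMD-Sen D16 against RS, 3 were DE here as well and 21 were not. The other 5 of the 8 (miR-337-3p, miR-377-5p, miR-31-5p, miR-708-5p and miR-874-3p) were not DE in PMD-Sen D16. Median log2 fold changes of DDR-Sen D16 over RS were 0.68 for the miR-17 clusters, 1.02 for miR-15/16 and −0.94 for miR-181. They were 0.15 for the mesenchymal list and −0.63 for the miR-320 family, beside −0.05 over all tested miRNAs. Each of these lists had the same sign as in PMD-Sen D16. For miR-15b-5p the log2 fold change over RS was 1.58 in PMD-Sen D16 and 1.02 in DDR-Sen D16, for miR-181a-5p −1.03 and −1.21, and for miR-374b-5p 1.06 and 1.84. Without RS replicate 1, the DDR-Sen D16 values were 0.99, not DE, then −1.40 and 1.57, both DE. PMD-Sen D16 was then compared with DDR-Sen D16 directly, which tests the difference between the contrasts, and 2 miRNAs (0.556%) were DE, both higher in PMD-Sen D16.

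miR-155-5p was at 949 and 815 CPM in DDR-Sen D16, close to the RS levels and below both PMD-Sen D16 libraries (PMD-Sen D16 over DDR-Sen D16, log2 fold change 1.40, SE 0.26, edgeR Benjamini-Hochberg adjusted p = 0.00278). miR-4286 was at 20.7 and 7.67 CPM in DDR-Sen D16, again near RS (log2 fold change 2.38, SE 0.55, edgeR Benjamini-Hochberg adjusted p = 0.0244). For the other 22 DE miRNAs a difference between the contrasts was not shown, which does not mean that they acted alike. Without DDR-Sen D16 replicate 2 or without PMD-Sen D16 replicate 1, the direct comparison had 0 calls in edgeR.

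Base composition moved weakly with the differences, and RS replicate 1 stood apart in it from the other libraries compared. A mature sequence was matched for all but 31 of the 360 tested miRNAs and for 20 of the 24 DE miRNAs, not for miR-199b-5p, miR-505-3p, miR-4286 and miR-486-5p. The median GC content was 40.9% in the 13 matched higher miRNAs, 50.0% in the 7 matched lower miRNAs and 50.0% over all matched miRNAs. Across the latter, GC content had r = −0.264 with the log2 fold change, r = 0.513 with the log2 ratio of RS replicate 1 to RS replicate 2, and r = −0.310 with that of the PMD-Sen D16 replicates. These are descriptions over miRNAs of the same 4 libraries. The log2 level changed with GC content by −0.228 and −0.087 per 10 percentage points in the PMD-Sen D16 libraries. In RS the slope was 0.243 in replicate 1 and −0.179 in replicate 2, so replicate 2 lay between the PMD-Sen D16 libraries. Whether the correlation with the log2 fold change holds without RS replicate 1 was not tested. With an offset for GC content in each library, added after seeing the data, 14 miRNAs were higher and 7 lower among the matched miRNAs, and 17 of the 20 matched DE miRNAs were still called. miR-155-5p, miR-374b-5p (log2 fold change 0.73) and miR-652-3p (−0.87) were not. With this offset 4 further miRNAs were called, miR-296-3p (1.99), miR-145-3p (1.51) and miR-143-3p (1.03) as higher and miR-320c (−1.39) as lower, of which miR-145-3p and miR-143-3p are MIR143 and MIR145 products of smooth muscle and myofibroblasts.

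**Figure D5:**
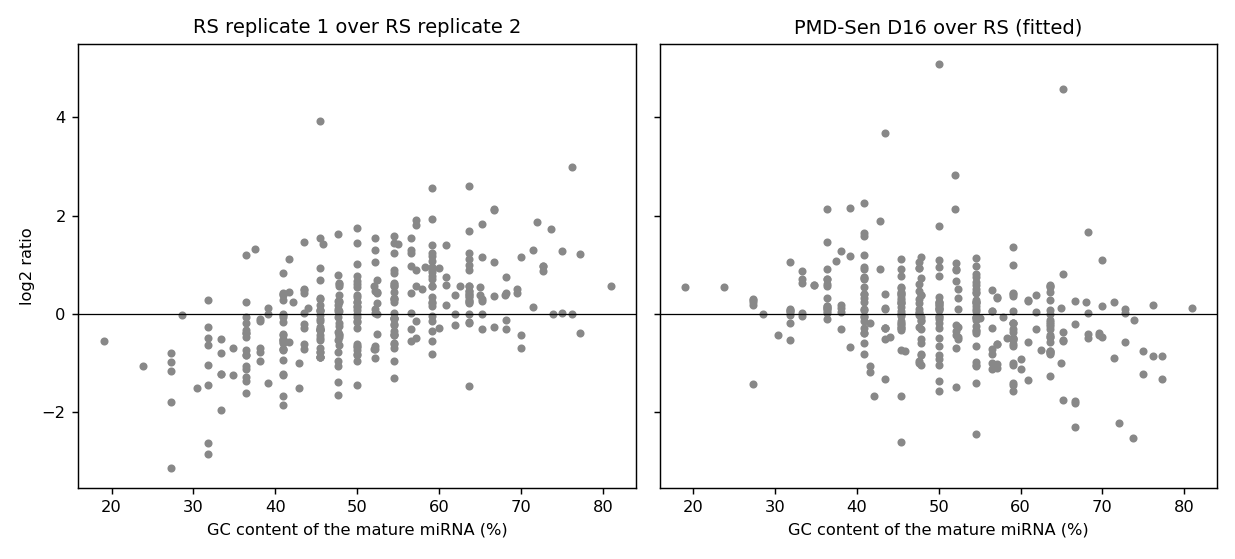
GC content of the mature miRNA in percent against the log2 ratio of RS replicate 1 to RS replicate 2 (left, with 5 CPM added to both) and the fitted log2 fold change of PMD-Sen D16 over RS (right), 1 point for each tested miRNA with a matched sequence. The left cloud climbs with GC content (r = 0.513) and the right one slopes down more weakly (r = −0.264).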

How the data were processed

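Per the authors' methods, small RNA reads were trimmed, mapped to GRCh38, aligned to miRBase and quantified in exceRpt. What they deposited is 1 unnormalized expected count for each mature miRNA in each library. Reads that fit several miRNAs were split, so 1003 of 54288 values were not whole, 18 names join several miRNAs, and close relatives are uncertain. Libraries were grouped by their labels. Values were rounded and tested in edgeR 4.0.16 (R 4.3.3) with TMM normalization, filterByExpr over the 18 groups, all 36 libraries and the quasi-likelihood test, where the biological coefficient of variation was 20.9%. CPM values use TMM-scaled totals. Named miRNAs are those with an adjusted p below 0.05 and a difference above 2-fold, their opposite arms, the 10 most abundant miRNAs and up to 3 members of each list with the largest fold changes. Other members were named after their values were seen. The authors' rule used the unadjusted p, which gave 24 higher and 27 lower. The members and lists were chosen with earlier results of these data known. On simulated counts for this comparison over 343 miRNAs, 173 of 178 tested changes of log2 fold change 2 were recovered (97.2%), with 2 of 165 unchanged miRNAs called. Many DE miRNAs had smaller differences, such as miR-93-5p (1.04), and the simulation does not give the recovery at that size. Alternatives were DESeq2 1.42.0, other scalings, filters, thinning, a replicate block, GC offsets and leaving out each library. Hairpin positions came from RefSeq and hosts from GENCODE.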

Additional observations from a re-analysis of the deposited data

Results flagged for a closer look

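PMD-Sen D16 and DDR-Sen D16 differed in their difference from RS for 2 miRNAs, tested directly between the treated groups with edgeR's quasi-likelihood test. The log2 difference, PMD-Sen D16 minus DDR-Sen D16, was 1.40 for miR-155-5p and 2.38 for miR-4286. Both PMD-Sen D16 libraries were above both DDR-Sen D16 libraries for each, which describes the values that were tested. Neither miRNA was called in every analysis with a library left out. miR-4286 was rare in DDR-Sen D16, at a mean of 14.2 CPM, where 3 counts correspond to 7.78 and 5.75 CPM in its libraries.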

How the results depend on the processing

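For PMD-Sen D16 against RS, 16 higher and 8 lower, the number lower was 14 with DESeq2 on all libraries, 27 at unadjusted p and 15 after thinning to equal totals. The numbers higher and lower were 0 and 0 in edgeR on the 4 libraries alone and 2 and 0 in DESeq2 on them. Leaving out each library gave 1 to 32 higher and 1 to 28 lower, and miR-122-5p ranged from −3.53 to 1.04, reversed without RS replicate 1. The cause was not tested. PMD-Sen D16 against Ctrl had 61 calls at unadjusted p, 60 with no minimum fold and 11 to 25 with a library left out. RS against Ctrl had 41 in DESeq2 and 40 in edgeR on the libraries compared alone, and 42 to 70 with a library left out. DDR-Sen D16 against RS had 4 with no filter, 3 in DESeq2 and 0 in edgeR on the libraries compared, 23 at unadjusted p, 16 with no minimum fold and 3 to 14 with a library left out. PMD-Sen D16 against DDR-Sen D16 had 4 with no filter, 4 with DESeq2 on all libraries, 5 in DESeq2 and 9 in edgeR on the libraries compared, 17 at unadjusted p, 1 after thinning and 0 to 4 with a library left out. With DESeq2 size factors 14 were higher and 9 lower, and with total counts 18 and 7.

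The replicate numbers are not labelled as shared batches, and deviations of same-numbered libraries had r = −0.36 over 360 miRNAs. With the replicate block 15 were higher and 10 lower, and with the RS numbers crossed, added after seeing the data, 19 and 8. In each of these block fits 23 of the 24 DE miRNAs were still called.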
